A study of Homo sapiens with 3 samples.

Results

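Heat shock proteins and their cochaperones were examined in HCT-116 cells, a colon carcinoma line whose APC is wild-type and whose β-catenin resists degradation, after *APC* was silenced by siRNA (silenced cells below). The 41 genes were a fixed list of chaperones, their cochaperones and the heat shock factors HSF1 and HSF2, matched by symbol to the deposited table, and all 41 were found among its 23131 genes. The series holds 3 libraries, 1 each for cells that received a pool of anti-*APC* siRNA, a pool of scrambled siRNA, and no siRNA. All came from the same line, grown in medium with 10% serum. The siRNA groups were transfected 2 times on consecutive days, with 5 μL of a 10 μM siRNA stock and 4 μL of Dharmafect 2 (a lipid transfection reagent), and cells were harvested 48 hours after the second transfection. The sample labels call the third group both untransfected and treated with reagent only, so they leave uncertain whether it received the reagent. The recorded protocol lists 4 μL of Dharmafect 2 for it too. The paper calls it a mock transfection in its methods and untransfected control cells in its supplement. No value of the scrambled siRNA library was used here, and every ratio below is anti-*APC* siRNA over untransfected. Such a ratio includes any effect of siRNA delivery itself. With 1 library per group no difference has a replicate check and no test between conditions could be made.

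Chaperones bind unfolded or partly folded proteins and help them reach or keep their shape. HSP70 proteins cycle between ATP and ADP. J proteins (HSP40) deliver clients to them, and nucleotide exchange factors of the BAG and HSP110 families release those clients. HSP90 acts later on more folded clients such as kinases and steroid receptors, with cochaperones that set the pace of its cycle, and the CCT/TRiC ring folds actin and tubulin. HSF1 is the transcription factor that induces many of these genes after heat or other protein damage. It does so through heat shock elements, arrays of the letters GAA and their complement TTC in alternating orientation.

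The elements below are shown because HSF1 induces heat shock genes through sites of this kind. Arrays of 3 units, GAA-TTC-GAA or TTC-GAA-TTC with any 2 bases between units, were searched on both strands of RefSeq promoter windows (250 bases before to 50 after an annotated start, GRCh38.p14), which 37 of the 41 genes had. Such an array was found in 0.490% of all 35116 windows and in 7 of the 52 windows (13.5%) of these genes, each in a different gene, and each 3-unit array also contains a 2-unit one. Of genes that HSF1 is known to induce, *HSPA8*, *HSP90AA1*, *DNAJA1*, *HSPD1* and *HSPA6* had a 3-unit array. Others, among them *HSPA1A*, *HSPA1B*, *DNAJB1* and *HSPH1*, had windows without one. No window was matched for *HSF1*, *HSPA14*, *HSPB11* and *CRYAB*. Capitals mark the array, and letters run 5′ to 3′ on the strand of the gene. Coordinates given for them are GRCh38.p14, and distances run from the first capital.
HSPA8, first: gagcttGAAAGTTCCAGAAcgctgc
HSPA8, second: ggccccTTCTGGAAGGTTCtaagat
HSP90AA1: gggttcTTCCGGAAGGTTCgggagg
HSP90AB1, first: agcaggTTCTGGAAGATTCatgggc
HSP90AB1, second: agattgTTCTGGAAGCTTCtggatt
HSPD1: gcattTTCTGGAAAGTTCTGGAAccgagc
DNAJA1: cgggcgGAACTTTCCAGAAcgctcg
DNAJB6: agccgaGAACCTTCGCGAAggtggg
HSPA6: gaaaggTTCGCGAAAGTTCgcggcg

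The second array of *HSPA8* began 55 bases before its start (chr11:123062173-123062197, minus strand) and the first 230 bases before it (chr11:123062348-123062372), both also within an exon of another *HSPA8* transcript. The array of *HSP90AA1* began 88 bases before one of its 2 annotated starts (chr14:102087114-102087138, minus strand). On GRCh37 the same letters of *HSP90AA1* lay upstream of the canonical GENCODE transcript, whereas both arrays of *HSP90AB1* (chr6:44247772-44247796 and chr6:44247825-44247849) lay in an intron of its canonical transcript, 165 and 112 bases before one of its 3 annotated starts. The array of *HSPD1* (chr2:197500062-197500090, minus strand) held 4 units and began 245 bases before one of its 2 annotated starts, where another *HSPD1* transcript has an exon. Those of *DNAJB6* (chr7:157336867-157336891) and *HSPA6* (chr1:161524460-161524484) began 131 and 74 bases before their starts. That of *DNAJA1* (chr9:33025270-33025294) began 3 bases after the start, within an exon. A match to these letters is a description of the sequence and not evidence that the factor was bound.

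In the inducible HSP70 genes *HSPA1A* and *HSPA1B* the exact letters matched only 2 units (GAANNTTC or TTCNNGAA, each read on both strands). Units that depart from these letters were not searched, so the full length of the element is not given. The 2-unit match was found in 13.5% of all windows and in 20 of the 52 windows (38.5%) of the chaperone genes. Capitals mark it, 106 bases before the start of *HSPA1A* and 105 before that of *HSPA1B*. The 250 bases before each start are given because they are nearly the same in both genes, with 93.6% identity over the aligned letters (RefSeq, GRCh38.p14).
HSPA1A, chr6:31815293-31815542, plus strand: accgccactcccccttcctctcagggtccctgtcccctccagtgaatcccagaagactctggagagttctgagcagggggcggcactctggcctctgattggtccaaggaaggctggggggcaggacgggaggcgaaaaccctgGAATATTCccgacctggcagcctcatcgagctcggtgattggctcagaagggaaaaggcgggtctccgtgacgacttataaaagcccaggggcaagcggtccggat
HSPA1B, chr6:31827488-31827737, plus strand: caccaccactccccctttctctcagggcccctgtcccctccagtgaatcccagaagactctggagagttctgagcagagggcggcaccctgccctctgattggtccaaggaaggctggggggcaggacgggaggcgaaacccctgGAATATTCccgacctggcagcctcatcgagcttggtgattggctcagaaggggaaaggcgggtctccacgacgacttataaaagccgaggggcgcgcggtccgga

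Transcript levels are FPKM, the fragments assigned to a gene per kilobase of its length, in proportion to all mapped fragments. The targeted gene *APC* fell from 9.15 to 3.43 FPKM, which left 37.5% of its level. Of 8 markers fixed for a colon epithelial line, 6 reached 1 FPKM, among them *EPCAM* at 170.3 and 189.5 FPKM in silenced and untransfected cells, while *CDX1* and *VIL1* were listed at 0 in untransfected cells. Summed over the 8, epithelial markers stood at 1294 FPKM in silenced and 1649 FPKM in untransfected cells. The leukocyte and endothelial lists each summed to at most 0.335 FPKM, and the fibroblast list to 3.11 and 2.86 FPKM, nearly all of it *COL1A1*. In bulk RNA fewer cells of a type and less RNA per cell cannot be told apart. Each implied error below is a standard error obtained by dividing the log2 ratio by the deposited test statistic, and it is not a spread between replicates. Ranges are 95% ranges from it. Depth was estimated from 128 genes whose implied error matches a single read per library, each with the length of its longest annotated transcript. The median estimate was 21700000 reads for anti-*APC* siRNA (quartiles 17500000 and 23500000) and 23800000 for untransfected cells (quartiles 19200000 and 25700000).

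None of the heat shock and cochaperone genes expressed at 1 FPKM or more differed by 1.5-fold between the libraries. By their listed loci 32 of the 41 genes stand alone and 9 share a locus with another gene. Of the 41 genes, 39 had a mean of at least 1 FPKM and a value above 0 in both libraries, and among these 0 were 1.5-fold higher and 0 were 1.5-fold lower with anti-*APC* siRNA. Over all 12063 genes past the same filter 2.56% were 1.5-fold higher and 6.61% were lower, 9.17% in either direction. Over the 7118 genes of at least 10 FPKM, the range that holds 35 of the 39, the shares were 1.9% higher and 3.19% lower, 5.09% in either direction. With 2-fold as the threshold the 39 genes again gave 0 in each direction (0.953% of all genes higher, 1.37% lower). With 25%, the larger value over the smaller, 1 gene was higher (7.17% of all genes) and 2 were lower (18.4%). The largest difference of any of the 39 genes was 0.37 on the log2 scale, against 0.58 for 1.5-fold. Their median log2 ratio was 0.04, with 24 genes above 0 and 15 below. Over all genes past the filter the median was -0.05, with 4990 above 0 and 7073 below. For the chaperone genes of at least 10 FPKM the median size of the log2 ratio, whatever its sign, was 0.11. For all genes of that level it was 0.14.

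**Figure D1:**
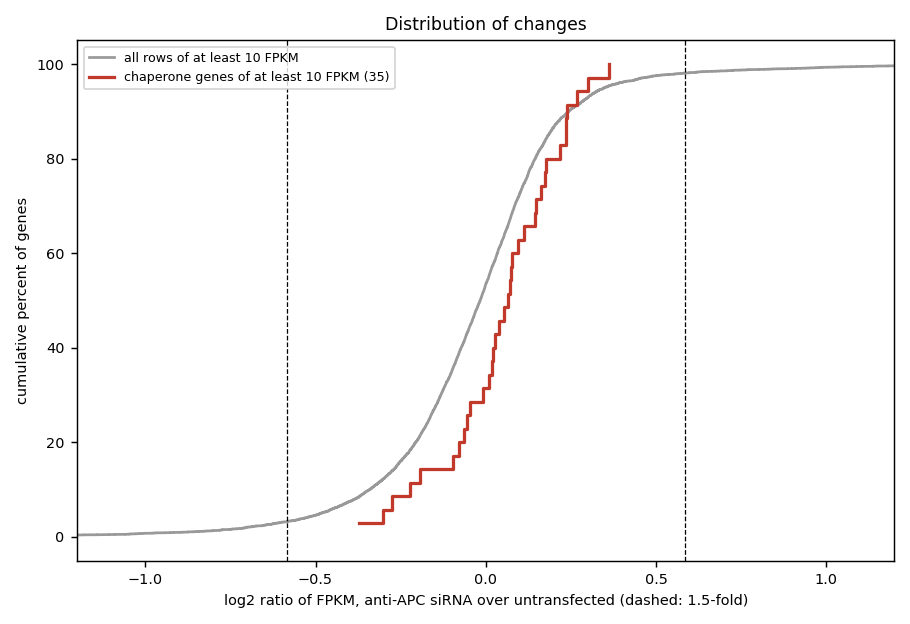
Cumulative percent of genes (vertical axis) by log2 ratio of FPKM, anti-*APC* siRNA over untransfected (horizontal axis), for 35 chaperone genes of at least 10 FPKM (red) and all 7118 genes of that level (grey). The dashed lines mark 1.5-fold, and the red line starts and ends between them.

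Together the 41 transcripts summed to 12122 FPKM in silenced and 11746 FPKM in untransfected cells, a log2 ratio of 0.05. Because FPKM is per length, levels can be set side by side between genes. HSP90 genes made up 36.8% and 36.9% of that sum with and without anti-*APC* siRNA. The 4 listed CCT/TRiC subunits held 13.8% and 13.5%. Constitutive cytosolic HSP70 genes, nearly all of it *HSPA8*, held 15.4% with anti-*APC* siRNA and 13.5% without. The stress-inducible HSP70 genes held only 1.46% and 1.54%, and the heat shock factors about 0.507% and 0.503%.

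**Figure D2:**
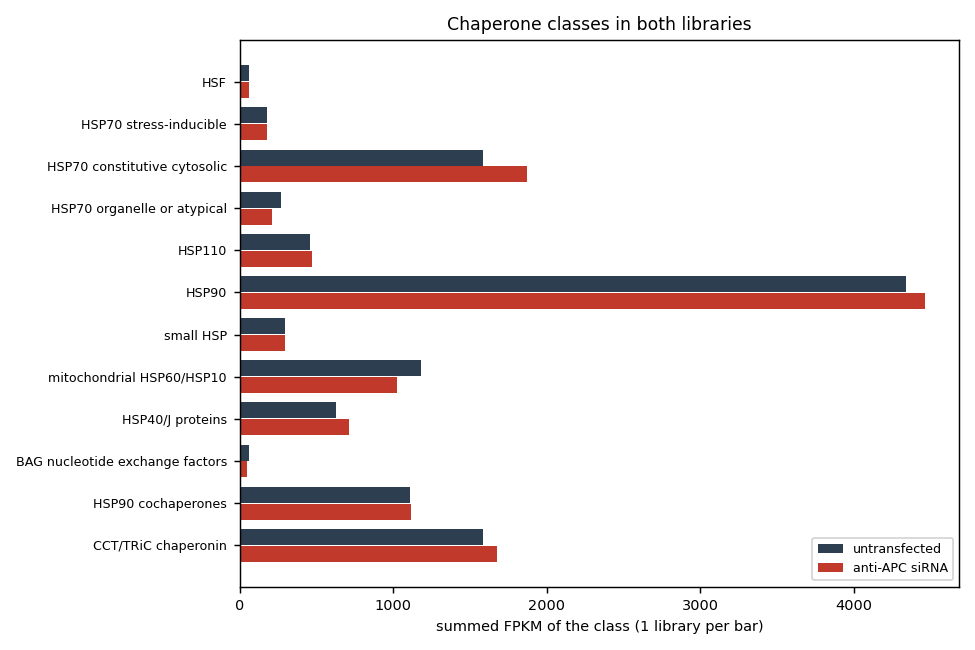
Summed FPKM (horizontal axis) of each of 12 chaperone classes in the untransfected library (dark) and the anti-*APC* siRNA library (red), 1 library per bar. HSP90 is the most abundant class at 4336 and 4463 FPKM, and no class differs by 1.5-fold.

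The heat shock factors themselves had log2 ratios of 0.01 and 0.22. *HSF1*, the factor that responds to heat, had 46.7 FPKM in silenced and 46.4 FPKM in untransfected cells (implied error 0.16). The range of its log2 ratio reaches from -0.30 to 0.32, and a change of that size could not have been seen at this precision. *HSF2*, a related factor with roles in development, had 14.7 and 12.7 FPKM (implied error 0.15). *HSF1* shares its locus in the table with *DGAT1*, which had 11.4 and 12.6 FPKM.

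The stress-inducible HSP70 genes did not stand higher with anti-*APC* siRNA. *HSPA1A* had 68.6 FPKM in silenced and 71.3 FPKM in untransfected cells (log2 ratio -0.06, implied error 0.15). *HSPA1B*, which encodes nearly the same protein, had 109 FPKM in both libraries (log2 ratio -0.01, implied error 0.15). Both differences are within the implied error, and *HSPA1B* changes sign when the median of all genes is subtracted. The pair cannot be measured apart with certainty, since 76.2% of the 36-base stretches in the *HSPA1A* transcript also occur in that of *HSPA1B*. Their sum was 177 FPKM in silenced and 181 FPKM in untransfected cells. Exchange of reads within the pair changes this sum little, since the transcripts are 2400 and 2517 bases long. *HSPA6*, which is strictly heat-inducible in human cells, was at 0.0567 and 0.0296 FPKM in silenced and untransfected cells with an implied error of 1.28, near the level of single reads, and is left out of the 39 genes.

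The table places *HSPA1A* (start 3076938, end 3079366 on the contig qbl), *HSPA1B* and the neighbouring *HSPA1L* on an alternative haplotype contig of chromosome 6 rather than on chromosome 6 itself. These 3 genes carry the status NOTEST (Cuffdiff made no test), as did 100% of the 111 genes on such contigs past the filter, against 0.368% of other genes past it. How reads matching several copies of this region were counted is not given in the sources used here, and its part in these levels was not tested. Without the 3 genes the median log2 ratio of the chaperone genes was 0.06.

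Constitutive HSP70 was represented mainly by *HSPA8*, the heat shock cognate protein that serves routine folding and clathrin uncoating. *HSPA8* (chromosome 11, 122928200 to 122932844, hg19) had 1824 FPKM in silenced and 1548 FPKM in untransfected cells. This is a 1.18-fold difference and the log2 ratio was 0.24 (implied error 0.011). *HSPA8* ranked 10 by level among the protein-coding genes of the table. It made up 80.7% of all HSP70 FPKM with anti-*APC* siRNA and 76.1% without, and its level was 10.3 and 8.57 times that of *HSPA1A* and *HSPA1B* combined.

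Other HSP70 genes were lower in level and spread on both sides of 0. *HSPA14*, a ribosome-associated HSP70, had 40.9 and 33.2 FPKM with and without the siRNA (log2 ratio 0.30, implied error 0.17). *HSPA2*, best known from the testis, had 1.58 and 1.83 FPKM (log2 ratio -0.21, implied error 0.29). *HSPA1L* had 1.70 and 1.73 FPKM (log2 ratio -0.02, positive when the median of all genes is subtracted). None of these lay more than 2 implied errors from 0.

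The lowest log2 ratio of all 39 genes was that of *HSPA9*, the mitochondrial HSP70 (mortalin) that pulls imported proteins into the matrix. *HSPA9* (chromosome 5, 137890571 to 137911318, hg19) had 189 FPKM in silenced and 245 FPKM in untransfected cells, a log2 ratio of -0.37 and a range of -0.74 to -0.01. Its locus also holds the small nucleolar RNA gene *SNORD63*, listed at 0 with anti-*APC* siRNA and at 611 FPKM without, and the part of this gene in the value of *HSPA9* was not tested. *HSPA12A*, a distant relative of HSP70, had 7.46 and 9.44 FPKM (log2 ratio -0.34, implied error 0.17). *HSPA13*, found at the endoplasmic reticulum, had 17.2 and 15.2 FPKM and a log2 ratio of 0.17.

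**Figure D3:**
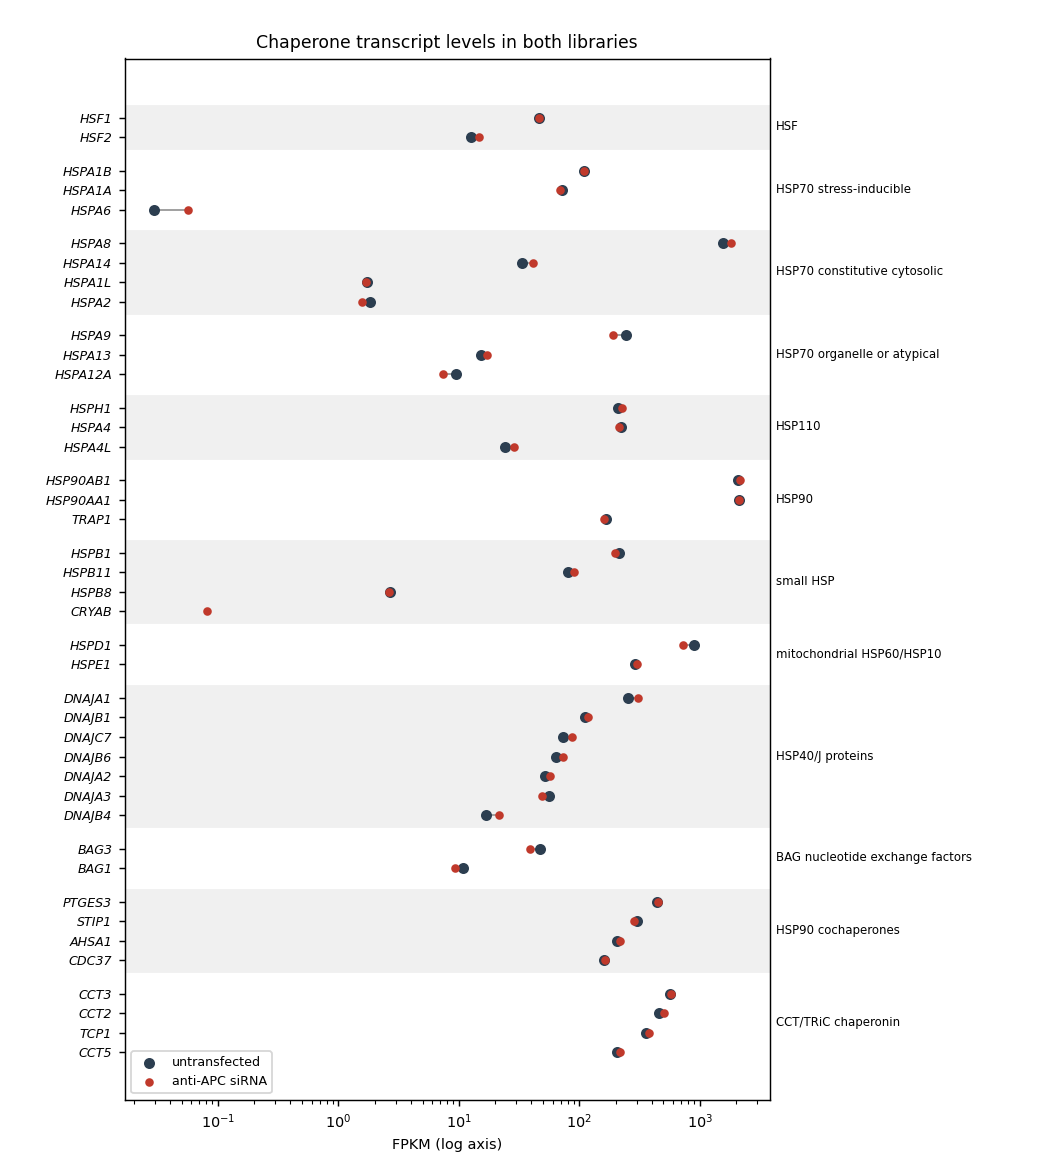
FPKM on a log axis (horizontal) of each chaperone gene in the untransfected library (dark) and the anti-*APC* siRNA library (red), grouped by class. Only *HSP90AB1*, *HSP90AA1* and *HSPA8* exceed 1000 FPKM in this list, and *CRYAB* has no dark point because it is listed at 0 in untransfected cells.

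The HSP110 genes, exchange factors that also keep aggregated proteins soluble, had log2 ratios from -0.06 to 0.24. *HSPH1* had 227 and 210 FPKM with and without anti-*APC* siRNA, a log2 ratio of 0.11, and *HSPA4* had 213 and 223 FPKM, a log2 ratio of -0.06. *HSPA4L* was lower in level, at 28.7 and 24.3 FPKM, and had the highest log2 ratio of the class, at 0.24 (implied error 0.16). The 2 listed BAG genes had log2 ratios below 0, whereas of 4 further BAG genes *BAG2* (0.31), *BAG5* (0.22) and *BAG4* (0.04) lay above 0 and *BAG6* (-0.13) below. Like *HSPA1A*, *BAG6* is listed on an alternative haplotype contig with the status NOTEST. *BAG3*, an HSF1-induced exchange factor that links HSP70 to autophagy, had 38.8 FPKM in silenced and 47.0 FPKM in untransfected cells, a log2 ratio of -0.28 and a range of -0.58 to 0.03. *BAG1* had 9.33 and 10.9 FPKM, a log2 ratio of -0.22 and a range of -0.58 to 0.13.

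The cytosolic HSP90 genes were the most abundant of the list and differed by less than 0.1 on the log2 scale. *HSP90AB1*, the constitutive form, had 2171 FPKM in silenced and 2066 FPKM in untransfected cells (log2 ratio 0.07, implied error 0.0077). *HSP90AA1*, the form with the stronger heat response, had 2131 and 2104 FPKM (log2 ratio 0.02, implied error 0.0057). They ranked 5 and 6 by level among protein-coding genes. *TRAP1*, the mitochondrial HSP90, had 161 and 166 FPKM (log2 ratio -0.05, implied error 0.16), and its sign turns when the median of all genes is subtracted. The 4 HSP90 cochaperones had log2 ratios from -0.08 to 0.07. *STIP1*, which joins HSP70 to HSP90, had 285 and 300.5 FPKM, and *AHSA1*, which stimulates the ATPase of HSP90, had 218 and 207 FPKM. *CDC37*, the adaptor for kinases, shares its locus with *MIR1181* and had 165 and 160.4 FPKM, and *PTGES3* (p23), which stabilizes the closed state, had 448 and 441 FPKM.

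Of 4 small heat shock protein genes, *HSPB1* (HSP27) carried most of the level, with 199.5 FPKM in silenced and 213 FPKM in untransfected cells (log2 ratio -0.10, implied error 0.15). *HSPB11*, which despite its symbol is a component of intraflagellar transport, had 90.5 and 80.8 FPKM and a log2 ratio of 0.16. *HSPB8*, the partner of *BAG3*, had 2.62 and 2.68 FPKM (log2 ratio -0.03, positive after the same subtraction of the median of all genes). *CRYAB* was listed at 0 in untransfected cells and at 0.0813 FPKM with anti-*APC* siRNA, so no ratio is given.

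HSP60 and HSP10 form the folding chamber of the mitochondrial matrix and are transcribed in opposite directions from neighbouring starts. *HSPD1* (HSP60) had 726 FPKM in silenced and 895 FPKM in untransfected cells, a log2 ratio of -0.30. *HSPE1* (HSP10) had 299 and 288 FPKM (log2 ratio 0.05, implied error 0.15). The ratio of *HSPD1* to *HSPE1* was 2.43 with the siRNA and 3.11 without. This difference of -0.36 on the log2 scale cannot be judged, because the implied error of *HSPD1* was 18.3, and the table lists both at 1 locus of 4 genes.

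Of 7 listed J proteins, 6 had a log2 ratio above 0 and the median was 0.18. Over all 7118 genes of at least 10 FPKM the median was -0.02, with 3312 above 0 and 3806 below. The 12 further J proteins examined had 7 above 0 and 5 below, with a median of 0.0076 and a range from -0.21 to 0.39. *DNAJB4* had the highest log2 ratio of the whole list, at 0.36 (range 0.01 to 0.71), from 16.8 FPKM in untransfected cells to 21.6 FPKM with anti-*APC* siRNA. *DNAJA1*, an abundant cytosolic J protein, had 306 and 254 FPKM with and without, a log2 ratio of 0.27 (range -0.04 to 0.57). *DNAJC7*, which binds both HSP70 and HSP90, had 86.5 and 73.2 FPKM (log2 ratio 0.24) and shares its locus with 3 other genes. *DNAJB6*, which suppresses aggregation, had 72.6 and 64.2 FPKM (log2 ratio 0.18), and *DNAJA2* had 57.4 and 52.0 FPKM (log2 ratio 0.14). *DNAJB1* (HSP40), the J protein most strongly induced by heat, had 117 and 112 FPKM (log2 ratio 0.07, implied error 0.15). The exception was *DNAJA3*, the mitochondrial J protein, with 48.8 and 55.9 FPKM and a log2 ratio of -0.19.

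**Figure D4:**
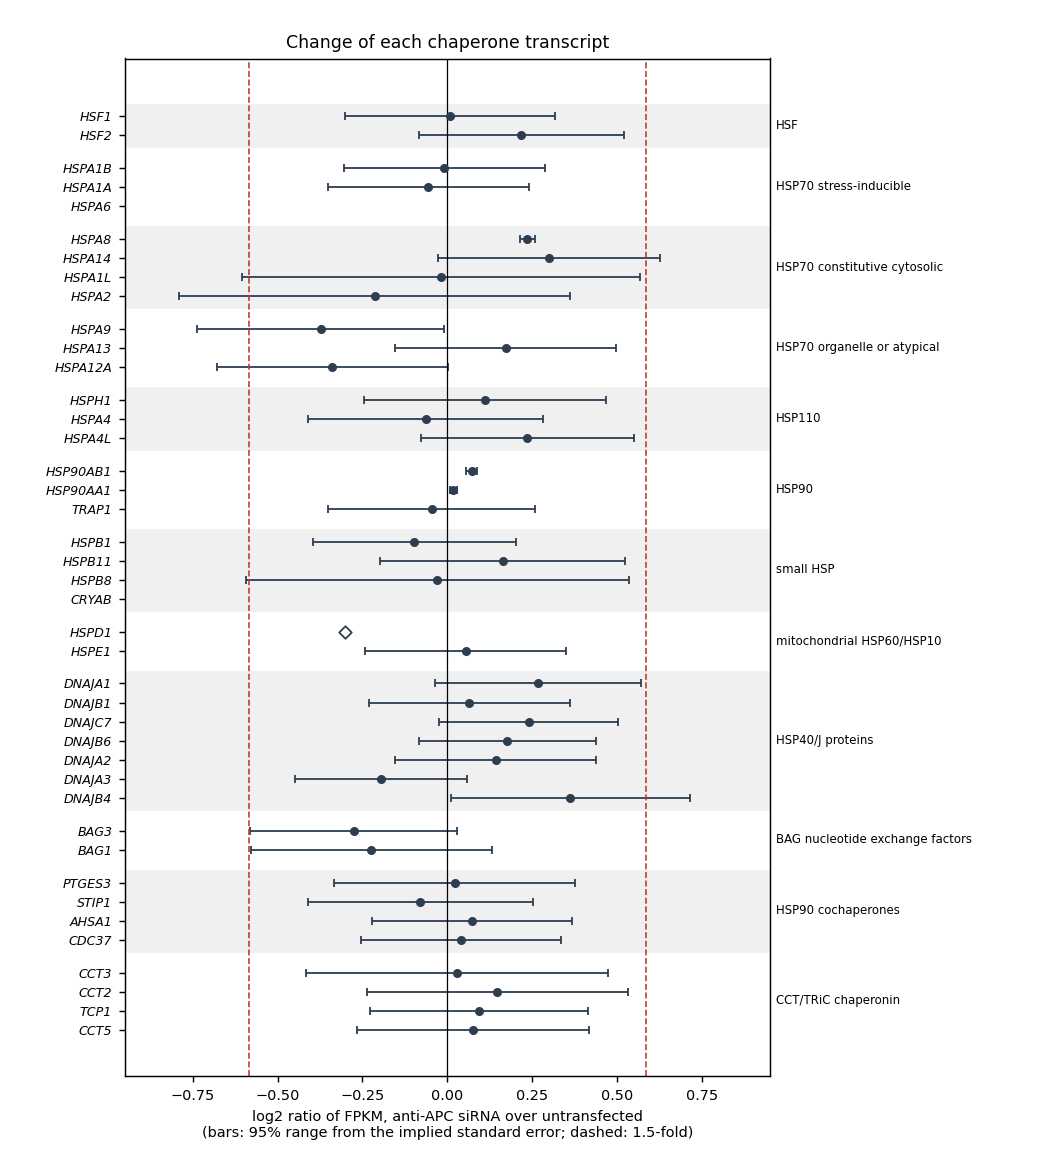
Log2 ratio of FPKM (horizontal axis) for each of the 39 chaperone genes of at least 1 FPKM, with bars of the 95% range from the implied error and dashed lines at 1.5-fold. Every point lies between the dashed lines, and the open diamond marks *HSPD1*, whose implied error of 18.3 is too wide to draw.

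The CCT/TRiC chaperonin is a double ring of 8 different subunits. Its 4 listed genes had log2 ratios of 0.15 for *CCT2*, 0.09 for *TCP1*, 0.08 for *CCT5* and 0.03 for *CCT3*. *CCT3* was the most abundant, with 579 FPKM in silenced and 567 FPKM in untransfected cells, and *CCT5* the least, with 217 and 206 FPKM. With the remaining genes *CCT4*, *CCT6A*, *CCT7* and *CCT8*, log2 ratios of all 8 ran from -0.00017 to 0.15, so they stayed within 0.15 of each other. This is less than the smallest implied error among the listed subunits, 0.16 for *TCP1*, whose locus holds 5 genes.

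Among other genes of the folding machinery 2 were past 1.5-fold. Of 62 further chaperone and cochaperone genes, 60 passed the filter, and *TTC4* and *PDIA6* have the status FAIL, under which the table lists 0 in both libraries, so they have no measured level. Of the 60, 0 were 1.5-fold higher and 2 were 1.5-fold lower, beside 2.56% and 6.61% of all genes past the filter. The median log2 ratio of the 60 was 0.0013. *PFDN5*, a subunit of prefoldin (which hands actin and tubulin to CCT/TRiC), fell from 248 to 135 FPKM (log2 ratio -0.88, implied error 0.13). The other prefoldin genes had log2 ratios from -0.12 for *PFDN6* to 0.30 for *PFDN4*. Like *HSPA1A*, *PFDN6* is listed on an alternative haplotype contig with the status NOTEST. *HSF4*, a heat shock factor of the lens, fell from 1.32 to 0.694 FPKM (log2 ratio -0.93, implied error 0.32). *HSF4* overlaps *FBXL8*, and its level lies at the filter. Named after their values were seen, in the endoplasmic reticulum *HSPA5* (BiP) had 244 and 307 FPKM (log2 ratio -0.33, implied error 0.29), and *HSP90B1* (GRP94) had 573 FPKM in both libraries. There *DNAJB9*, at 8.17 and 5.71 FPKM, had the highest log2 ratio of the 60, at 0.52 (implied error 0.22). Of the 13 endoplasmic reticulum genes past the filter 6 lay above 0 and 7 below, with a median of -0.07.

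Genes that HSF1 is known to induce lay on both sides of 0. Of 22 such genes, 20 passed the filter, with 11 above 0, 9 below and a median log2 ratio of 0.02. Over all genes past the filter 4990 lay above 0 and 7073 below. Past 1.5-fold either way were 0 of the 20, beside 9.17% of all genes past the filter. Of the 6 that are not chaperone genes of the list, *SERPINH1* (HSP47), the collagen chaperone, had the lowest log2 ratio, at -0.40, from 48.4 and 63.6 FPKM in silenced and untransfected cells. It is named after its values were seen. The 6 chaperone genes past the filter with a 3-unit array had log2 ratios from -0.30 for *HSPD1* to 0.27 for *DNAJA1* and a median of 0.12. The 30 without one had a median of 0.03 and ran from -0.37 to 0.36. For the 2-unit array the median was 0.04 over 18 genes with it and 0.03 over 18 without.

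The implied errors of the most abundant chaperone genes stood apart from the rest. Across the 3386 genes of at least 30 FPKM the median implied error was 0.15 on the log2 scale, and 17 chaperone genes of at least 100 FPKM had errors from 0.15 to 0.23. *HSP90AA1*, *HSP90AB1* and *HSPA8* had 0.0057, 0.0077 and 0.011. Protein-coding genes within 2-fold of the level of *HSPA8* had a median of 0.16 (54 genes, quartiles 0.11 and 0.18). From the estimated depth and transcript lengths, counting error alone would give about 0.0052 for *HSP90AA1*, 0.0058 for *HSP90AB1* and 0.0069 for *HSPA8*. The errors of these 3 genes thus lay within 1.6 times the estimated counting error. Those of the 17 other abundant chaperone genes were 4.49 to 17.8 times their estimated counting error. With an error no smaller than 0.15 the range of *HSPA8* is -0.06 to 0.54, that of *HSP90AB1* is -0.23 to 0.37 and that of *HSP90AA1* is -0.28 to 0.32. With the implied errors as deposited none of the 3 ranges includes 0. *HSPD1* stood apart in the other direction, with 18.3 against a median of 0.16 over 125 protein-coding genes of like level. The spread between cultures was not measured.

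**Figure D5:**
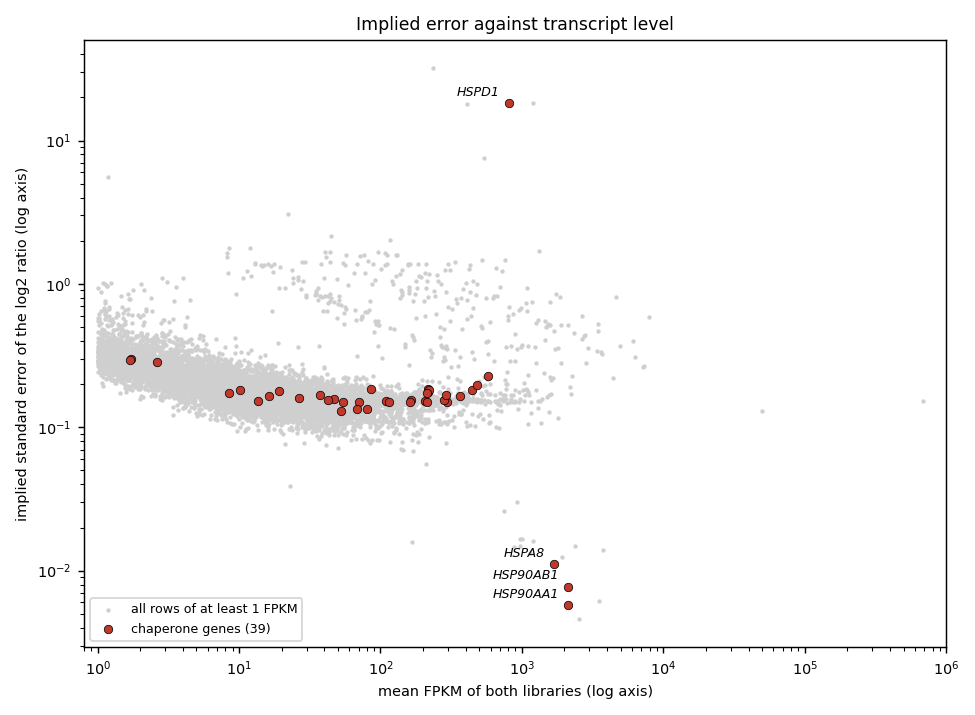
Implied standard error of the log2 ratio against mean FPKM of both libraries, both on log axes, for all genes of at least 1 FPKM (grey) and 39 chaperone genes (red). *HSPA8*, *HSP90AB1* and *HSP90AA1* lie far below the band near 0.15 and *HSPD1* lies far above it.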

How the data were processed

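Libraries were single-read TruSeq, and the submitters' processing notes name Cufflinks, Cuffdiff and hg19 (versions not given in the sources used here). The deposited table gives FPKM for the anti-*APC* siRNA and the untransfected library. Its log ratio, *p*, *q* and significance columns hold the authors' comparison and were not used. The deposited test statistic, a score, served only to derive the implied error of each log2 ratio. Members and lists were chosen with earlier results of these data known.

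Log2 ratios were computed without a pseudocount for genes with a mean of at least 1 FPKM, neither library at 0 and a status other than FAIL (269 genes). A gene was called at 1.5-fold, and no *p*-value was computed. Named were genes past 1.5-fold, the 5 most abundant, those whose implied error was 5 times above or below that of genes within 2-fold of their FPKM, the extremes of each class, *HSF1*, *HSPA1A*, *HSPA1B* and *APC*, and every other member was accounted for. Promoter windows and gene ranks used RefSeq (GRCh38.p14) and GENCODE 44 (GRCh37), and table coordinates are given with 1 added to the start. A run on simulated data checked only the arithmetic of calls and implied errors. It could not show whether the implied errors are right for these libraries. Alternatives were other folds, filters, pseudocounts, centring and loci. Python 3.11.15, numpy 2.4.6, pandas 2.3.3 and matplotlib 3.10.9 were used.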

Additional observations from a re-analysis of the deposited data

How the results depend on the processing

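The count of chaperone genes past 1.5-fold was 0 in each direction with a 2-fold threshold, a pseudocount of 1 FPKM, a minimum of 10 FPKM, median centring, or loci of 1 gene only. A threshold of 25%, the larger value over the smaller, gave 1 higher (*DNAJB4*) and 2 lower (*HSPA9*, *HSPA12A*) of 39, beside 7.17% and 18.4% of all genes. Without a filter 1 gene was higher (*HSPA6*, near the level of single reads). Subtracting the median of all genes, -0.05, moved the median of the HSP90 class from 0.018 to 0.071, turned the sign of the stress-inducible HSP70 and small heat shock protein medians, and turned the signs of *HSPA1B*, *HSPA1L*, *TRAP1* and *HSPB8*. The median over all chaperone genes ran from 0.04 to 0.09 across 7 alternatives, 2 of them chosen after the data were seen. As a share of all deposited FPKM the summed level had a log2 ratio of -0.02, and as a share of protein-coding genes 0.05. No paired analysis was possible because each group has 1 library, and none could be left out.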

Other observations

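Chaperones of the mitochondrial matrix, a group formed after their values were seen, stood mostly below 0. Of *HSPA9*, *HSPD1*, *DNAJA3*, *TRAP1* and *HSPE1*, 4 of 5 had a log2 ratio below 0, with a median of -0.19. Of all 12063 genes past the filter, 7073 also lay below 0 and 4990 above. The summed level of the 5 was 1424 FPKM in silenced and 1649.7 FPKM in untransfected cells. Most of that gap is *HSPD1*, whose implied error was 18.3. The 7 further mitochondrial chaperone and protease genes, among them *GRPEL1*, *CLPP* and *LONP1*, had a median of 0.01.

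Pseudogenes of HSP90 were listed at high levels. *HSP90AB3P* had 799.6 FPKM in silenced and 756 FPKM in untransfected cells, and *HSP90AA6P* had 284 and 272 FPKM. Of the 36-base stretches in *HSP90AB3P* 31.8% also occur in the *HSP90AB1* transcript, and 12.7% of those in *HSP90AA6P* occur in *HSP90AA1*. How shared reads were assigned is not given in the sources used here. Their log2 ratios were 0.08 and 0.06, beside 0.07 for *HSP90AB1* and 0.02 for *HSP90AA1*, and adding all pseudogenes to their parents moved the parents' log2 ratios by at most 0.0028.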
